A study of Mus musculus with 17 samples.

Results

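AMPA receptors carry most of the fast excitatory current in the hippocampus. The 9 genes described here encode their pore subunits and a set of the auxiliary proteins that bind them: GluA1 to GluA4 (Gria1, Gria2, Gria3 and Gria4), the transmembrane AMPA receptor regulatory proteins or TARPs stargazin, gamma-3 and gamma-8 (Cacng2, Cacng3 and Cacng8), and the cornichons CNIH2 and CNIH3 (Cnih2 and Cnih3). They were chosen as a named gene family, by symbol, out of the 55450 genes in the count lists, and all 9 passed the filter on low counts that left 17615 genes for testing. A receptor is built from pore subunits around a central channel, and the mix of subunits sets whether calcium can pass. TARPs and cornichons escort the receptor to the membrane, anchor it at the synapse and slow the closing and desensitization of the channel, and gamma-8 is known as the TARP most typical of the hippocampus.

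The data were messenger RNA counts from the hippocampus of adult C57BL/6J mice, 17 libraries in 3 groups. Sham control mice (n = 5) received no kainic acid and carried the control guide sgLacZ (Ctrl-dCas9A). Epileptic mice had kainic acid injected into the right amygdala, which brought on status epilepticus and later spontaneous seizures. They carried either sgLacZ (epileptic Ctrl-dCas9A, n = 6) or the guide sgKcna1 (epileptic Kcna1-dCas9A, n = 6), which directs the activator to the promoter of Kcna1, the gene of the Kv1.1 potassium channel. All 3 groups received the same pair of AAV9 vectors, one with dCas9-VP64 under a TRE promoter, the other with the guide and a doxycycline-dependent activator under the Camk2a promoter, and all were fed doxycycline before collection. The vectors were injected in the right ventral hippocampus and the Camk2a promoter favours excitatory neurons, so that transduced neurons were one fraction of the cells from which RNA was taken, and no sham group with sgKcna1 was analysed here. Epileptic mice entered the study only if they had regular seizures. The labels call the samples separate hippocampi but do not name the animals, so p-values measure the spread between these libraries.

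Reads in genes ranged from 11839240 to 28311328 per library, and the share of reads that were not mapped from 11.0 to 41.5%. Both ends of the second range stood apart: replicate 4 of epileptic Ctrl-dCas9A had the lowest share, and replicate 12 of epileptic Kcna1-dCas9A the highest share and the fewest reads. Xist and Y-linked reads marked 8 libraries as female and 9 as male, with 2 of 5, 4 of 6 and 2 of 6 female in the 3 groups. In 6 libraries (sham control replicates 16 and 23, epileptic Ctrl-dCas9A replicate 8, and epileptic Kcna1-dCas9A replicates 1, 11 and 12) both Xist and Y-linked genes were above 1 CPM (counts per megaread of the library, here before and elsewhere after TMM scaling). Markers of pyramidal cells, granule cells, interneurons and glia were all detected in every library. Kcna1, the targeted gene, was at 37.6, 44.0, 25.5, 33.7 and 34.6 CPM in the sham controls. Its lowest, median and highest levels were 16.9, 27.6 and 56.7 CPM in epileptic Ctrl-dCas9A and 13.9, 19.1 and 133 CPM in epileptic Kcna1-dCas9A, where replicate 12 alone lay above every other library. The guide groups therefore overlapped in the level of the targeted gene (log2 fold change 0.32, SE 0.47, adjusted p = 0.71 in edgeR). The sign of this value rested on replicate 12, without which it was -0.65 (unadjusted p = 0.027, adjusted p = 0.29 in edgeR), and it was also negative with quality weights (-0.31), with the unmapped share as a covariate (-0.85) and without the libraries with reads of both sexes (-0.61).

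One short stretch of sequence distinguishes the pore subunits in what they let through. At the Q/R site, in the membrane loop that lines the channel, the gene of each subunit encodes glutamine, and only in the Gria2 transcript is this codon edited, by an A-to-I change made by the enzyme ADAR2, so that it is read as arginine and the channel excludes calcium. The coding sequences around this site are shown from the GENCODE vM1 transcripts because the share of Gria2 among the pore subunits was the quantity compared among them, and each is 51 bases long, 5′ to 3′, with the codon of the Q/R site in capitals.
Gria1: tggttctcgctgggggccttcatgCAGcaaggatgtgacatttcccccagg
Gria2: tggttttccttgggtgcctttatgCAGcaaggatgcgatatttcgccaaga
Gria3: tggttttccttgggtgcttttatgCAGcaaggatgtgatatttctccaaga
Gria4: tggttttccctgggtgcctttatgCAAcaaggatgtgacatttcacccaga
The Gria1 window differed from that of Gria2 at 10 of 51 bases, Gria3 at 3 and Gria4 at 6. The edit itself is not measured by counts per gene. In GRCm38.p6, Gria1 lies on chromosome 11 (57011571 to 57330244), Gria2 on chromosome 3 (80681450 to 80804227), Gria3 on chromosome X (41400819 to 41678601) and Gria4 on chromosome 9 (4417893 to 4796234). Reads that mapped to more than one place were not counted, and made up 3.19 to 5.31% of reads per library.

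Gria2, the subunit that makes the channel impermeable to calcium, was lower in the epileptic hippocampus, and it was the only one of the 9 genes past the threshold. Its level in the sham controls was 1304, 1406, 1303, 1444 and 1299 CPM. In epileptic Ctrl-dCas9A, replicates 4 to 9, it was 564, 1218, 951, 737, 881 and 778 CPM. Every epileptic Ctrl-dCas9A library lay below every sham control, with replicate 5 nearest to them and replicate 4 the lowest. The mean was 855 ± 222 CPM (SD, n = 6) against 1351 ± 68.8 CPM (SD, n = 5), a fitted change of -0.66 on the log2 scale (SE 0.17, 0.632-fold, adjusted p = 0.0333 in edgeR's quasi-likelihood test). Of all genes tested in this comparison, 3.76% passed the adjusted threshold of 0.05 as lower and 7.26% as higher, and 4.39% had groups that did not overlap in CPM. The direction held in all 25 alternatives (-0.79 to -0.47), but the adjusted p rose to between 0.051 and 0.0923 when any 1 of 8 libraries was left out (sham controls 13, 14, 15, 16 and 23, epileptic Ctrl-dCas9A 4, 7 and 9), and to 0.054 (log2 -0.66) without the 6 libraries that held reads of both sexes. In bulk tissue, fewer cells that express a gene and less RNA of it per cell cannot be told apart.

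In epileptic Kcna1-dCas9A, Gria2 lay between the other groups on average. Its lowest, median and highest levels were 959, 1081 and 1662 CPM (mean 1153 ± 260.0, SD, n = 6). Of these libraries 5 lay below all sham controls, replicate 12 lay above all of them, and the group overlapped with epileptic Ctrl-dCas9A. The difference from epileptic Ctrl-dCas9A was 0.43 on the log2 scale (SE 0.16, unadjusted p = 0.0136, adjusted p = 0.213 in edgeR), and that from the sham controls was -0.23 (SE 0.17, adjusted p = 0.79). Without replicate 12 they were 0.29 and -0.37.

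**Figure D1:**
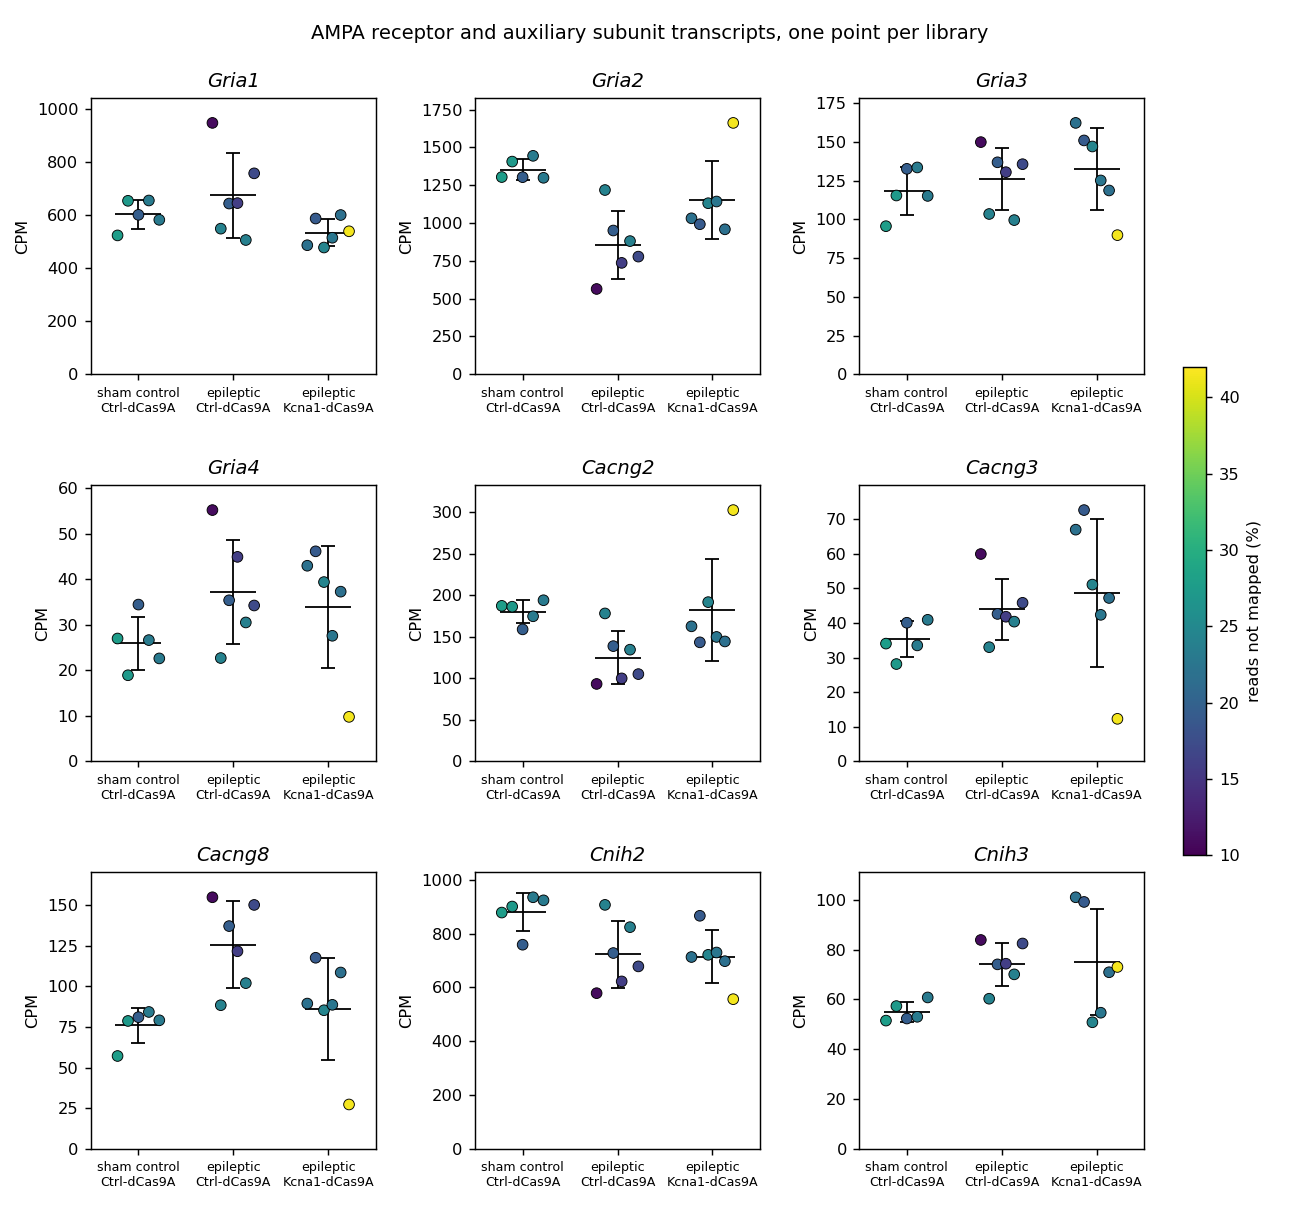
Level of each of the 9 genes in CPM (vertical axes, from 0) in the 17 libraries, with 1 point per library, the mean as a bar and the SD as whiskers, coloured by the percentage of reads that were not mapped. Gria2 lay between 564 and 1218 CPM in epileptic Ctrl-dCas9A and between 1299 and 1444 CPM in the sham controls, and replicate 12 of epileptic Kcna1-dCas9A (41.5% not mapped) lay at 1662 CPM.

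Gria1, whose long cytoplasmic tail is a target of CaMKII during synaptic potentiation, was not called different in the epileptic hippocampus. The sham controls were at 523, 653, 600.4, 654 and 582 CPM. Epileptic Ctrl-dCas9A had a lowest, median and highest of 506, 644 and 946 CPM, and epileptic Kcna1-dCas9A ran from 477 to 599.6 CPM (mean 534 ± 51.0, SD, n = 6). Epileptic Ctrl-dCas9A had the widest spread, with replicates 4 and 9 above every control and replicate 8 below every control, and the groups overlapped. Its fitted difference from the sham controls was 0.16 (log2, SE 0.13, adjusted p = 0.40 in edgeR). Between the guides in epileptic mice it was -0.34 (SE 0.13, unadjusted p = 0.0169, adjusted p = 0.217 in edgeR), opposite in sign to that of Gria2.

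Gria3, an X-linked pore subunit, had similar means in the 3 groups, 119, 126 and 132 CPM, and its 3 fitted differences were 0.16 or less on the log2 scale (SE 0.14 each). The sham controls were at 95.7, 115, 133, 134 and 115 CPM, epileptic Ctrl-dCas9A had a lowest, median and highest of 99.6, 133 and 150.0 CPM and epileptic Kcna1-dCas9A of 89.9, 136 and 162 CPM, so that all groups overlapped. Gria4, prominent in fast-spiking interneurons, was the least abundant pore subunit. It was at 27.0, 18.9, 34.5, 26.7 and 22.6 CPM in the sham controls, with a lowest, median and highest of 22.7, 34.8 and 55.2 CPM in epileptic Ctrl-dCas9A and 9.8, 38.3 and 46.1 CPM in epileptic Kcna1-dCas9A. Replicate 12 of the last group, with 105 reads, lay below every other library, and 3 of 6 epileptic Ctrl-dCas9A libraries lay above all controls. The fitted difference between epileptic Ctrl-dCas9A and the controls was 0.52 (SE 0.29, unadjusted p = 0.0878, adjusted p = 0.205 in edgeR).

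Levels of different genes can be compared only per length, and transcript models were complete enough for this only for the pore subunits (longest models of 5546 bases for Gria1, 6955 for Gria2, 5192 for Gria3 and 5441 for Gria4). In the sham controls the order per kilobase was Gria2, Gria1, Gria3, Gria4 in all 5 libraries, with 194 ± 9.89, 109 ± 9.89, 22.8 ± 3.00 and 4.77 ± 1.06 CPM per kilobase (SD, n = 5), and no neighbours in that order overlapped. Epileptic Ctrl-dCas9A departed from it at the top: Gria2 and Gria1 averaged 123 ± 31.9 and 122 ± 28.7 CPM per kilobase (SD, n = 6), a difference well within their spread, and Gria1 exceeded Gria2 in replicates 4, 7 and 9. In replicates 7 and 9 this depended on the transcript lengths used. Without scaling by length, the ratio of Gria2 to Gria1 reads was 0.60, 1.14 and 1.03 in these 3 libraries. In epileptic Kcna1-dCas9A the control order was found in all 6 libraries (Gria2 166 ± 37.4, Gria1 96.2 ± 9.19 CPM per kilobase). Gria3 ranked below both and above Gria4 in each of the 17 libraries.

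As a share of the 4 pore subunits per length, Gria2 made up 61.4, 58.5, 57.2, 58.3 and 58.7% in the sham controls. The lowest, median and highest shares were 27.9, 44.7 and 58.7% in epileptic Ctrl-dCas9A, and 49.9, 55.6 and 67.3% in epileptic Kcna1-dCas9A. Replicate 5 of epileptic Ctrl-dCas9A lay within the control range and replicate 4 was the lowest of all. The shares are a description and were not tested. The sum of the 4 genes was 331 ± 20.6 CPM per kilobase in the sham controls, 276 ± 21.7 in epileptic Ctrl-dCas9A and 294 ± 30.5 in epileptic Kcna1-dCas9A (SD), so that the sum of the pool also had a lower mean in both epileptic groups.

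**Figure D2:**
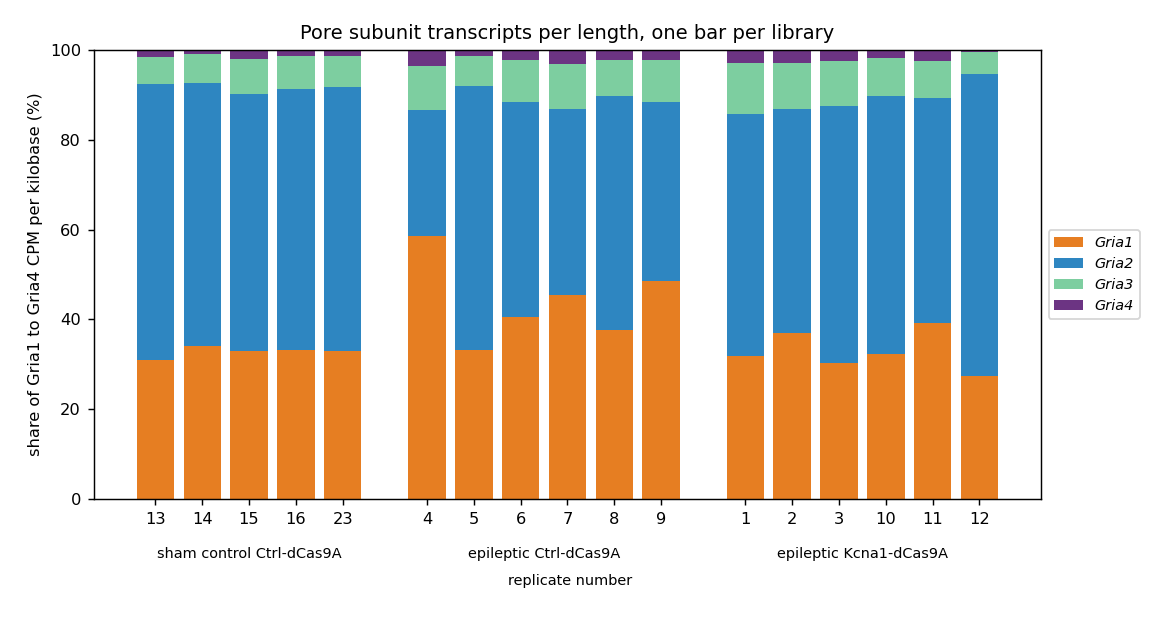
Share of Gria1, Gria2, Gria3 and Gria4 in their summed CPM per kilobase of transcript (vertical axis, percent), with 1 bar per library labelled by replicate number. The Gria2 segment was 57.2 to 61.4% of the bar in the sham controls and fell below that of Gria1 in replicates 4, 7 and 9 of epileptic Ctrl-dCas9A (without scaling by length, only in replicate 4).

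The ratio of Gria2 to Gria1 reads within a library is free of the scaling between libraries, but not of other library traits. The 2 genes went with the unmapped share in opposite directions (r = 0.80 for Gria2 and -0.58 for Gria1 over 17 libraries). No ratio was fitted with that share as a covariate. The 9 genes were chosen with earlier results of these data known, and the adjustment does not cover the choice of pairs. In the sham controls the log2 ratio was 1.11 to 1.32 (mean 1.17 ± 0.09, SD, n = 5). It averaged 0.33 ± 0.67 in epileptic Ctrl-dCas9A and 1.09 ± 0.35 in epileptic Kcna1-dCas9A (SD, n = 6 each). The epileptic Ctrl-dCas9A mean was lower than that of the controls by 0.83, and replicate 5 of that group, at 1.15, was the only one of its 6 libraries within the control range (two-sided exact permutation test, p = 0.0216, adjusted p = 0.0455 over 9 ratio tests). Epileptic Kcna1-dCas9A was higher than epileptic Ctrl-dCas9A by 0.76 (exact permutation p = 0.0303, adjusted p = 0.0455) and differed from the sham controls by -0.08 (exact permutation p = 0.67). Neither call was stable to leaving out 1 library: each of the 5 sham controls and epileptic Ctrl-dCas9A replicates 4, 6, 7, 8 and 9 ended both, and epileptic Kcna1-dCas9A replicates 1, 3, 10 and 12 ended the second. The comparison between the guides does not use the sham controls, so leaving out 1 of them changed only its adjustment over the 9 ratio tests. Without epileptic Ctrl-dCas9A replicate 4 the differences were -0.62 and 0.54.

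Among the TARPs, the 2 that are best known in hippocampal pyramidal cells had fitted changes of opposite sign in the epileptic hippocampus, without passing the threshold as single genes. Cacng2 (stargazin; chromosome 15, 77991919 to 78120220), the founding TARP, was at 187, 186, 159, 175 and 194 CPM in the sham controls. Its lowest, median and highest levels were 93.4, 119.9 and 178 CPM in epileptic Ctrl-dCas9A and 143, 156 and 303 CPM in epileptic Kcna1-dCas9A. Of 6 epileptic Ctrl-dCas9A libraries 5 lay below all controls and replicate 5 among them, and in epileptic Kcna1-dCas9A replicate 12 lay above all other libraries. The fitted difference between epileptic Ctrl-dCas9A and the controls was -0.53 (SE 0.19, unadjusted p = 0.0118, adjusted p = 0.0669 in edgeR). In edgeR that between the guides was 0.54 (SE 0.18, unadjusted p = 0.00749, adjusted p = 0.213), and epileptic Kcna1-dCas9A differed from the sham controls by 0.02 (SE 0.19). Without replicate 12 these values were 0.34 and -0.19.

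Cacng8 (gamma-8; chromosome 7, 3394042 to 3416266) showed the reverse order. The sham controls were at 57.1, 78.7, 81.1, 84.3 and 79.2 CPM, with a lowest, median and highest of 88.5, 129 and 155 CPM in epileptic Ctrl-dCas9A and 27.3, 89.1 and 118 CPM in epileptic Kcna1-dCas9A. Epileptic Ctrl-dCas9A did not overlap with the controls and lay above all of them, while replicate 12 of epileptic Kcna1-dCas9A lay below all other libraries. The fitted difference between epileptic Ctrl-dCas9A and the controls was 0.73 (SE 0.25, unadjusted p = 0.00919, adjusted p = 0.0609 in edgeR). Between the guides it was -0.54 (SE 0.24, unadjusted p = 0.0330, adjusted p = 0.237 in edgeR). Cacng3 (gamma-3, found in cortical and hippocampal neurons; chromosome 7, 122671744 to 122769393) was at 34.0, 28.1, 40.1, 33.5 and 40.9 CPM in the sham controls and averaged 43.9 ± 8.91 CPM in epileptic Ctrl-dCas9A and 48.7 ± 21.3 CPM in epileptic Kcna1-dCas9A (SD, n = 6 each), with medians of 42.2 and 49.1 CPM and overlapping groups, and no difference was called (0.31, SE 0.28, epileptic Ctrl-dCas9A against controls).

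The log2 ratio of Cacng8 to Cacng2 reads brought both TARPs together, which went with the unmapped share in opposite directions (r = -0.93 and 0.91 over 17 libraries). It was -1.71, -1.24, -0.97, -1.05 and -1.29 in the sham controls and averaged 0.02 ± 0.64 in epileptic Ctrl-dCas9A and -1.16 ± 1.18 in epileptic Kcna1-dCas9A (SD, n = 6 each). Of the epileptic Ctrl-dCas9A libraries only replicate 5, at -1.01, lay within the control range, and replicates 4, 7 and 9 had more Cacng8 than Cacng2 reads. The first difference was 1.27 (two-sided exact permutation p = 0.00649, adjusted p = 0.0325 over the 9 ratio tests), and that between the guides -1.18 (exact permutation p = 0.0281, adjusted p = 0.0455). The second rested in part on replicate 12 of epileptic Kcna1-dCas9A, at -3.47, without which it was -0.71 and no longer called, and its call also ended without any 1 of the 5 sham controls, epileptic Ctrl-dCas9A replicates 4, 6, 7, 8 and 9, or epileptic Kcna1-dCas9A replicates 1, 3 and 10. For the sham controls, which this comparison does not use, only the adjustment over the 9 ratio tests changed. Epileptic Kcna1-dCas9A and the sham controls differed by 0.10 (exact permutation p = 0.93), but without replicate 12 the mean of the other 5 libraries was -0.70 and the difference from the controls 0.56 (exact permutation, adjusted p = 0.0571). As single genes Cacng8 and Cacng2 had fitted changes of opposite sign in epileptic Ctrl-dCas9A against the controls (0.73 and -0.53), neither called. The adjustment over the 9 ratio tests does not cover the choice of this pair.

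The means of the cornichons lay on the same side of the controls in both epileptic groups, Cnih2 below and Cnih3 above, and neither gene was called. Cnih2 (chromosome 19, 5092868 to 5098521), the major cornichon of hippocampal pyramidal cells, was at 878, 900.4, 758, 935 and 923 CPM in the sham controls. Its lowest, median and highest levels were 578, 703 and 907 CPM in epileptic Ctrl-dCas9A and 556, 717 and 866 CPM in epileptic Kcna1-dCas9A. Of these groups 4 and 5 libraries lay below all controls and the rest among them. The fitted differences from the sham controls were -0.28 (SE 0.12, unadjusted p = 0.0342, adjusted p = 0.115 in edgeR) and -0.30 (SE 0.12, unadjusted p = 0.0254, adjusted p = 0.69).

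Cnih3 (chromosome 1, 181350459 to 181460641), its close relative, was at 51.5, 57.3, 52.3, 53.0 and 60.8 CPM in the sham controls, with a lowest, median and highest of 60.3, 74.3 and 83.9 CPM in epileptic Ctrl-dCas9A and 50.8, 72.0 and 101 CPM in epileptic Kcna1-dCas9A. Above all controls lay 5 of 6 and 4 of 6 of these libraries. The differences from the controls were 0.43 (SE 0.16, unadjusted p = 0.0124, adjusted p = 0.0686 in edgeR) and 0.45 (SE 0.16, unadjusted p = 0.0101, adjusted p = 0.67), and those 2 comparisons share the control libraries. Between the guides Cnih2 differed by -0.02 (SE 0.12) and Cnih3 by 0.02 (SE 0.15).

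For the cornichon pair the log2 ratio of Cnih2 to Cnih3 reads was 4.09, 3.97, 3.86, 4.14 and 3.92 in the sham controls, 3.27 ± 0.41 in epileptic Ctrl-dCas9A and 3.29 ± 0.42 in epileptic Kcna1-dCas9A (SD, n = 6 each). Every epileptic Kcna1-dCas9A library lay below every control, and of epileptic Ctrl-dCas9A only replicate 5, at 3.91, lay among the controls. The means were lower than in the controls by 0.72 (two-sided exact permutation p = 0.00866, adjusted p = 0.0325) and by 0.71 (exact permutation p = 0.0108, adjusted p = 0.0325), and the guides differed by 0.01 (exact permutation p = 0.95). Leaving out 1 of the sham controls 13, 14, 16 or 23 raised these 2 adjusted p-values, and that of the Cacng8 to Cacng2 ratio against the controls, to 0.0545. Here too the single genes had changes of opposite sign and were not called, and the adjustment does not cover the choice of the pair.

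**Figure D3:**
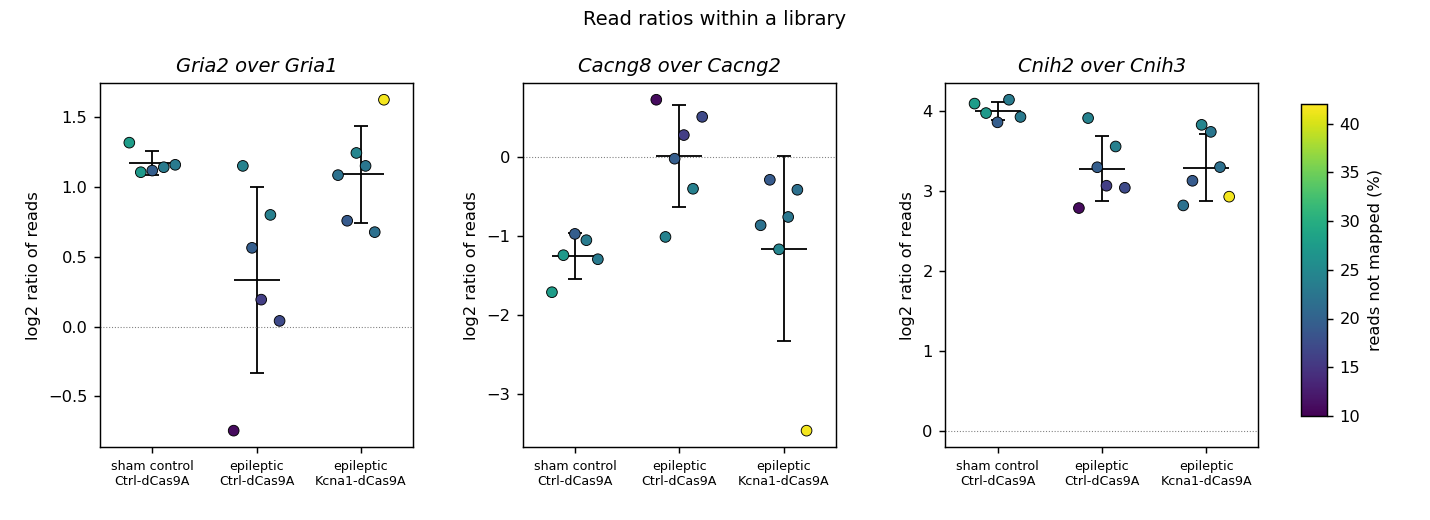
Log2 ratio of reads within each library (vertical axes) for Gria2 over Gria1, Cacng8 over Cacng2 and Cnih2 over Cnih3, with 1 point per library, the mean as a bar and the SD as whiskers, coloured by the percentage of reads that were not mapped. For Gria2 over Gria1 and Cacng8 over Cacng2 the epileptic Kcna1-dCas9A means of 1.09 and -1.16 lay near the control means of 1.17 and -1.25, the second with replicate 12 at -3.47 (mean of the other 5 libraries -0.70), whereas for Cnih2 over Cnih3 both epileptic groups lay at 3.27 and 3.29 against 4.00 in the controls.

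Counted over the 9 genes, epileptic Ctrl-dCas9A against the controls gave 1 gene lower and 0 higher past the adjusted threshold, where 3.76% and 7.26% of all tested genes were. At an unadjusted p under 0.05, 3 were lower and 2 higher, where 15.9% and 18.8% of all tested genes were. The median log2 fold change of the 9 was 0.16 (range -0.66 to 0.73), against 0.02 over all genes tested. Of the 9, 2 (Gria2 and Cacng8) had groups that did not overlap, as 4.39% of all tested genes did. DESeq2 called 3 of the 9 (Cacng2, Cacng8 and Gria2), where it called 20.9% of all genes, and voom with quality weights 6, where it called 41.4%.

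Between the guides in epileptic mice edgeR called 0 of the 9, and 0% of all genes passed in this comparison. At an unadjusted p under 0.05, 2 of the 9 were higher (Gria2, Cacng2) and 2 lower (Gria1, Cacng8), where 8.69% and 10.5% of all tested genes were. Their median log2 fold change was 0.02 (range -0.54 to 0.54) against -0.01 over all genes. DESeq2 and voom with quality weights also called 0 of the 9, where they called 0.812% and 0.0681% of all genes. Without replicate 5 of epileptic Ctrl-dCas9A, edgeR called Gria2 and Cacng2 (0.56 and 0.67, adjusted p = 0.0421 for both), in a fit that called 8.54% of all genes. None of the 9 had groups that did not overlap, as 0.483% of all tested genes did.

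Epileptic Kcna1-dCas9A against the sham controls likewise gave 0 calls among the 9 in edgeR, DESeq2 and voom with quality weights. Of all genes, 0% passed the threshold in edgeR, 0.221% in DESeq2 and 0.403% in voom. Cnih3 was higher and Cnih2 lower at an unadjusted p under 0.05, which 4.29% and 2.48% of all tested genes were, and none of the 9 had groups that did not overlap, against 1.14% of all. The median log2 fold change was 0.16 (range -0.30 to 0.47), with 0.02 over all genes tested. The 3 comparisons share groups with each other, so that their values stand side by side and are not independent.

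**Figure D4:**
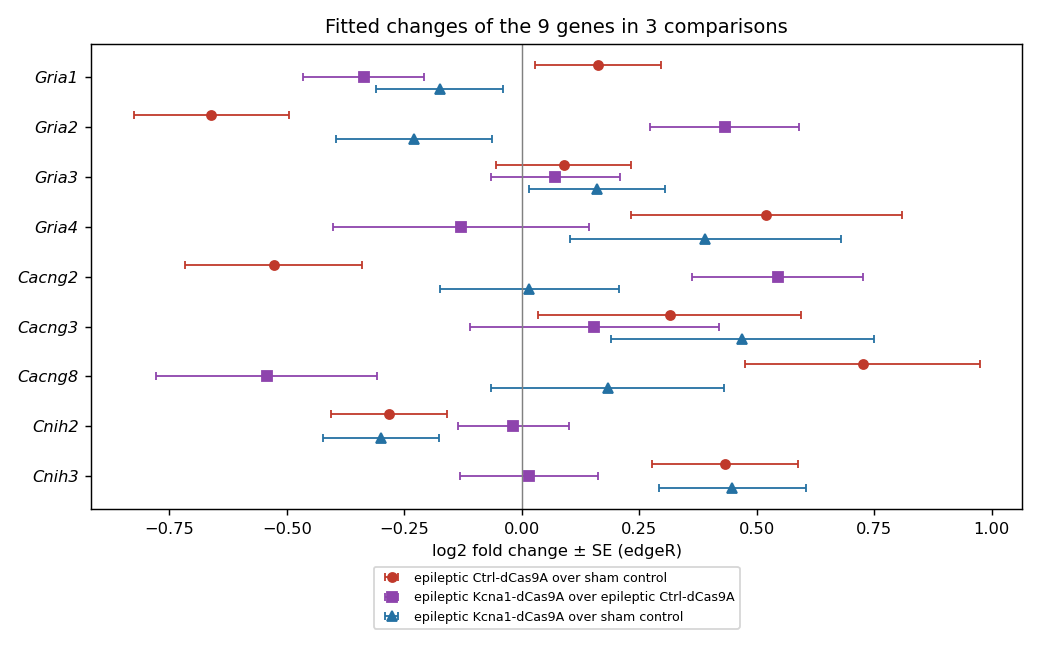
Log2 fold change of each of the 9 genes with the standard error implied by its edgeR F statistic (horizontal axis) in 3 comparisons that share libraries. Only Gria2 in epileptic Ctrl-dCas9A over sham control, at -0.66, passed the adjusted threshold.

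The share of reads that were not mapped moved with most of these genes across the libraries. It averaged 24.1% in the sham controls, 18.6% in epileptic Ctrl-dCas9A and 25.2% in epileptic Kcna1-dCas9A. Over the 17 libraries its Pearson correlation with log2 CPM was 0.91 for Cacng2 and -0.93 for Cacng8 (permutation p = 1e-05 for both, the smallest that 100000 resamples can give, adjusted p = 4.5e-05 over 9 genes), with Spearman's rho of 0.84 and -0.85 (permutation p = 5e-05 and 6e-05, adjusted p = 0.00027 for both). For Gria2 it was 0.80 (rho 0.77, permutation p = 7e-05 and 0.00048, adjusted p = 0.000157 and 0.00144). With the 2 libraries farthest from the median left out (epileptic Ctrl-dCas9A replicate 4 and epileptic Kcna1-dCas9A replicate 12), r was 0.83, -0.81 and 0.72 for the 3 genes.

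Of the other genes, Gria4 (r = -0.89), Cacng3 (-0.82), Gria3 (-0.70) and Gria1 (-0.58) went down as the unmapped share went up, and for each of these 4 the adjusted permutation p was 0.0342 or less. After the 2 libraries were left out r was -0.67, -0.47, -0.54 and -0.50. Over all 17 libraries Pearson's r was 0.06 for Cnih2 (permutation p = 0.82) and -0.30 for Cnih3 (permutation p = 0.24), whose rank correlation passed (rho -0.62, adjusted permutation p = 0.011). Within the epileptic groups (the sham controls, with 5 libraries, were too few) the relations varied by gene. In epileptic Ctrl-dCas9A r was 0.91 for Gria2, 0.89 for Cacng2, -0.84 for Cacng8 and 0.97 for Cnih2 (n = 6, exact permutation p = 0.0167, 0.0167, 0.0403 and 0.00417), and in epileptic Kcna1-dCas9A 0.97, 0.97, -0.99 and -0.90 (n = 6, exact permutation p = 0.0139, 0.00694, 0.00139 and 0.0278). The sign for Cnih2 thus differed between the epileptic groups, and r in these groups was -0.93 and -0.10 for Gria1 (n = 6 each, exact permutation p = 0.00972 and 0.861) and -0.84 and -0.15 for Cnih3 (exact permutation p = 0.0292 and 0.728). Replicate 5 of epileptic Ctrl-dCas9A, which lay among or near the controls for most of the 9 genes, had 24.1% of its reads unmapped, the highest share of its group.

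With the unmapped share as a covariate, Gria2 in epileptic Ctrl-dCas9A remained lower than in the controls, by -0.47 instead of -0.66 (adjusted p = 0.0347 in edgeR), where 428 genes were called in place of 1940. In that edgeR fit Cacng2 differed by -0.27 (adjusted p = 0.0947), Cacng8 by 0.28 (adjusted p = 0.18) and Gria4 by -0.02, while Cnih2 at -0.29 and Cnih3 at 0.35 moved little. Between the guides the covariate brought Gria2 from 0.43 to 0.17, Cacng2 from 0.54 to 0.18 and Cacng8 from -0.54 to -0.13. What the unmapped reads were, and their part in these differences, was not tested.

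**Figure D5:**
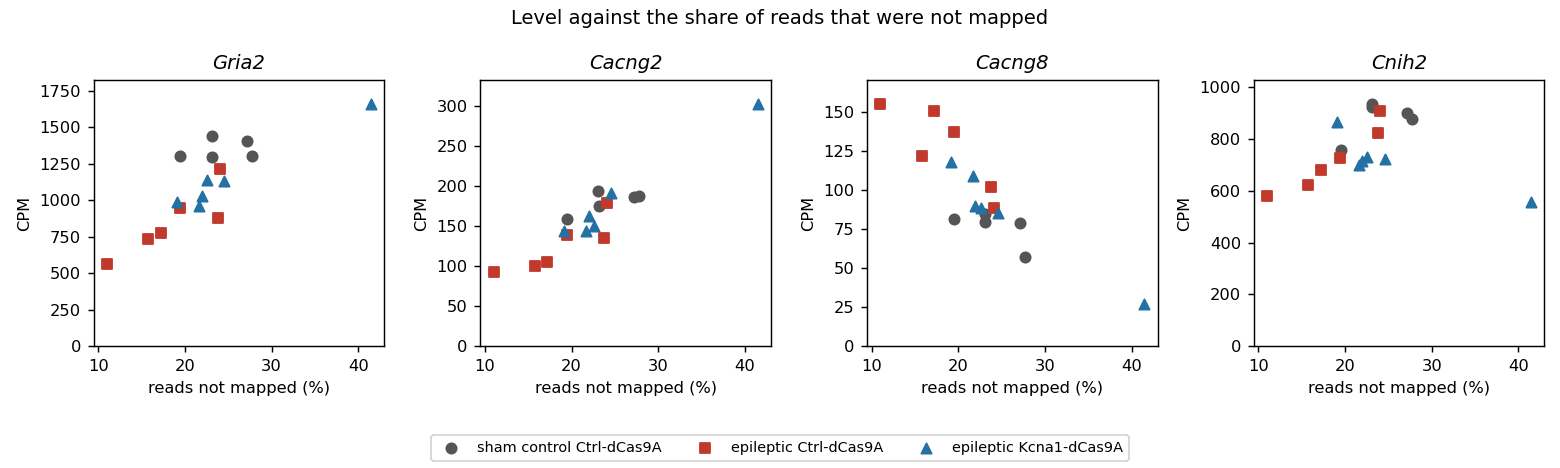
Level in CPM (vertical axes, from 0) of Gria2, Cacng2, Cacng8 and Cnih2 against the percentage of reads that were not mapped (horizontal axes), with 1 symbol per library and a colour and shape per group. Gria2 and Cacng2 were higher and Cacng8 lower in libraries with more unmapped reads, from replicate 4 of epileptic Ctrl-dCas9A at 11.0% to replicate 12 of epileptic Kcna1-dCas9A at 41.5%.

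Markers of cell types were read beside these genes, since each receptor gene has its own distribution over cells. Summed pyramidal cell markers (8 genes) ran from 3409 to 3932 CPM in the sham controls, 3561 to 5657 CPM in epileptic Ctrl-dCas9A and 3503 to 4455 CPM in epileptic Kcna1-dCas9A. Within that list, in epileptic Ctrl-dCas9A against the controls, Slc17a7, the vesicular glutamate transporter of excitatory neurons, rose by 0.77 on the log2 scale (adjusted p = 0.0366 in edgeR) and Bok, used as a marker of CA3 pyramidal cells, fell by 0.52 (adjusted p = 0.0454).

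Interneuron markers (6 genes) summed to 1224 to 1532 CPM in the sham controls, 819 to 1380 CPM in epileptic Ctrl-dCas9A and 995 to 1464 CPM in epileptic Kcna1-dCas9A, and 0 of 6 were called by edgeR, with Pvalb at -1.01 (adjusted p = 0.0524) and Sst at -0.80 (adjusted p = 0.0505). With Vip at -0.38, 3 of them were lower at an unadjusted p under 0.05, as 15.9% of all tested genes were. General neuronal markers (5 genes, 0 called) ran from 4507 to 4802, 4076 to 4467 and 4404 to 5093 CPM in the same order of groups. Astrocyte markers (5 genes) ran from 782 to 871, 893 to 1318 and 836 to 1144 CPM, with Gfap 0.60 higher (adjusted p = 0.0447) and Aldh1l1 0.33 higher (adjusted p = 0.0391) in epileptic Ctrl-dCas9A (edgeR). In the microglial list edgeR called 1 of 5 genes (Csf1r, 0.38 higher, adjusted p = 0.0356), although the median log2 fold change of the list was -0.13 and its sum ran from 174 to 213, 167 to 229 and 199 to 265 CPM, and in the granule cell list 1 of 6 (Pdzd2, 0.83 higher, adjusted p = 0.0404). Oligodendrocyte markers (5 genes) summed to 6132 to 8835, 4570 to 6776 and 2542 to 10040.4 CPM, oligodendrocyte precursor markers (4 genes) to 212 to 221, 219 to 278 and 146 to 255 CPM, endothelial markers (4 genes) to 169 to 237, 125 to 241 and 146 to 299 CPM, and choroid plexus markers (4 genes) to 1197 to 12507, 4390 to 11428 and 291 to 7810 CPM, with 0 genes called in these lists. No list had a called gene between the guides or between epileptic Kcna1-dCas9A and the controls. The part of the cell mix in the differences of the receptor genes was not tested.

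Taken by sex as read from Xist and Y-linked genes, Gria2 in epileptic Ctrl-dCas9A was lower than in the sham controls by 0.72 on the log2 scale among female libraries (4 against 2) and by 0.69 among male libraries (2 against 3), as differences of group means of log2 CPM without a test. Cacng2 differed by -0.58 and -0.57, and Cacng8 by 0.59 and 0.79. The female sham controls (replicates 16 and 23) and male epileptic Ctrl-dCas9A replicate 8 were among the libraries with reads of both sexes. No female control library was thus free of Y-linked reads above 1 CPM. With sex as a covariate the fitted change of Gria2 was -0.70 (adjusted p = 0.0489 in edgeR).

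A further 39 genes whose products assemble, anchor, move, cluster, phosphorylate or edit AMPA receptors were counted, of which 38 were tested. Prrt2, with at most 1 read, was not. Of these, 3 rose in epileptic Ctrl-dCas9A against the sham controls and 0 fell, where 7.26% of all tested genes rose and 3.76% fell. At an unadjusted p under 0.05 there were 12 higher and 3 lower, where 18.8% and 15.9% of all genes were, and the median log2 fold change was 0.13. Nptx1, a secreted pentraxin that clusters AMPA receptors, was at 293 ± 50.9 CPM in the controls (225 to 361) and 456 ± 132 CPM in epileptic Ctrl-dCas9A (279.6 to 639), a rise of 0.64 (SE 0.18, adjusted p = 0.0393 in edgeR). The groups overlapped, and the call ended without any 1 of the sham controls or of epileptic Ctrl-dCas9A replicates 4, 7 and 9 (edgeR adjusted p up to 0.105). It also ended in edgeR with the unmapped share as a covariate (0.49, adjusted p = 0.10) and with sex as a covariate (0.60, adjusted p = 0.0551). Without the libraries with reads of both sexes the change was 0.85 (adjusted p = 0.0509 in edgeR).

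Adar, an RNA-editing enzyme, rose by 2.01 (SE 0.42, adjusted p = 0.032 in edgeR), from 13.6 ± 2.95 CPM (SD, n = 5) to 54.7 ± 38.4 CPM (SD, n = 6). This value is uncertain, because the sum of its strand-specific counts was 3.26 times the count used here (reads that fall in 2 overlapping genes are left out when strand is ignored), and with the strand-specific sum the change was 0.41 (adjusted p = 0.0521 in edgeR). Adarb1, which encodes ADAR2, the enzyme of the Q/R site, was singled out for that role with its values known. It was at 90.3 ± 8.17 CPM in the controls (80.8 to 103) and 121 ± 39.6 CPM in epileptic Ctrl-dCas9A (90.5 to 197), and its difference of 0.43 (SE 0.16, adjusted p = 0.0715 in edgeR) did not pass.

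By role, 0 of 3 other TARPs, 0 of 6 other auxiliary subunits, 0 of 5 assembly factors and 0 of 12 scaffold and trafficking genes were called in that comparison, against 1 of 6 extracellular partners and 2 of 6 kinases and editing enzymes, and 1, 2, 2, 5, 2 and 3 of them had an unadjusted p under 0.05. Of all genes tested, 11.0% were called in that comparison, and at an unadjusted p under 0.05 the share was 18.8% higher and 15.9% lower. In the other comparisons edgeR, DESeq2 and voom with quality weights each called 0 of the 38. Of all genes, they called 0%, 0.812% and 0.0681% between the guides. For epileptic Kcna1-dCas9A against the controls these shares were 0%, 0.221% and 0.403%. Between the guides the smallest unadjusted p-values in edgeR belonged to Nptx1 (-0.62, unadjusted p = 0.00164), Adar (-1.20, unadjusted p = 0.00582, but -0.22 and 0.117 with the strand-specific sum) and Shisa6, an auxiliary subunit that keeps receptors from desensitizing (-0.62, unadjusted p = 0.0116), each with an adjusted p = 0.213. Of the 38, 3 were higher and 7 lower at an unadjusted p under 0.05, where 8.69% and 10.5% of all tested genes were. Between epileptic Kcna1-dCas9A and the sham controls the smallest p-values belonged in edgeR to Gsg1l, an auxiliary subunit (0.70, unadjusted p = 0.000676, adjusted p = 0.38), Nptx2, an activity-regulated pentraxin (0.88, unadjusted p = 0.000834, adjusted p = 0.39), and Olfm2, a secreted olfactomedin (0.52, unadjusted p = 0.00407, adjusted p = 0.59). There 5 of the 38 were higher and 0 lower at an unadjusted p under 0.05, where 4.29% and 2.48% of all tested genes were.

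The genes whose log2 CPM followed each pore subunit most closely over the 17 libraries were sought among 11383 genes with a mean of at least 5 CPM, as a description. Gria2 was followed by Gm17066 (r = 0.98), Ogfrl1 (0.98) and 2810455O05Rik (0.98), and with the group means removed r was 0.97, 0.96 and 0.98. Gria4 came with Eps15l1 (0.96), Ric8b (0.95) and Plch1 (0.95), which became 0.96, 0.96 and 0.98. For Gria1 they were Slc24a3 (0.90), Fbxo38 (0.90) and Shisa6 (0.90), which became 0.93, 0.86 and 0.90, and for Gria3 Meaf6 (0.89), Rgs7 (0.88) and Kcnf1 (0.88), each 0.91 with the group means removed. Among the 9 genes themselves the closest pairs were Gria4 with Cacng3 (r = 0.92) and Gria2 with Cacng2 (r = 0.92), which became 0.93 and 0.91 with group means removed. The libraries behind these values also share the differences in unmapped reads given above.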

How the data were processed

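Poly(A) RNA of 17 hippocampi was sequenced from libraries made with the TruSeq RNA Library Prep Kit v2, per the labels. The authors deposited 1 list of read counts per library, 55450 genes each, as STAR writes it when it aligns reads and counts them per gene (STAR 2.7, mm10 and DESeq2 are named in the submitters' processing notes). The count that ignores strand was used, because reads on the reverse and forward strand were in a ratio of 0.994 to 0.998.

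Counts were fitted with edgeR 4.0.16 in R 4.3.3: all 17 libraries, TMM scaling, filterByExpr, the quasi-likelihood F test and Benjamini-Hochberg adjustment over 17615 genes at a threshold of 0.05. The SE given with an edgeR log2 fold change is its absolute value divided by the square root of the F statistic. CPM values are TMM-scaled, and 3 reads correspond to 0.106 to 0.253 CPM. Ratios of reads within a library (0.5 reads added) were compared with two-sided exact permutation tests, adjusted over 9 tests, and correlations over 17 libraries with 100000 permutations. Only 3 pairs of genes were compared as ratios, and the adjustment does not cover the choice of these pairs. Levels per length used the longest GENCODE vM1 transcript. Coordinates are from RefSeq on GRCm38.p6.

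Alternatives were DESeq2 1.42.0, RLE size factors, no filter, the sum of both strand counts, the unmapped share or sex as a covariate, voom with quality weights (limma 3.58.1) and leaving out each library. Leaving out the 6 libraries with reads of both sexes, and shares without length, were added after seeing the data. The 9 genes and all gene lists were chosen with earlier results of these data known. Of the other AMPA receptor genes those past the threshold were named, or otherwise the 3 with the smallest p. One gene past the threshold is not reported here. The 3 genes most correlated with each pore subunit were also named.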

Additional observations from a re-analysis of the deposited data

Results flagged for a closer look

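Of 42 groups of values (the 9 genes, Kcna1, the 3 ratios and the Gria2 share in 3 groups of libraries), 7 held a library that lay far from the rest of its group by Dixon's test. Chance alone marks about 1 in 20 groups. Replicate 12 of epileptic Kcna1-dCas9A accounted for 5 of them, with 133 CPM of Kcna1, the targeted gene (the next library of its group was at 29.5), 1662 CPM of Gria2 (next 1142), 303 CPM of Cacng2 (next 192), 27.3 CPM of Cacng8 (next 85.3) and a log2 ratio of Cacng8 to Cacng2 of -3.47 (next -1.17). The same library had the highest unmapped share, the fewest reads and reads of both sexes. Sham control replicate 13 accounted for the others, with 57.1 CPM of Cacng8 (next 78.7) and a log2 ratio of Gria2 to Gria1 of 1.32 (next 1.16).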

How the results depend on the processing

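The number of the 9 genes called between epileptic Ctrl-dCas9A and the sham controls was 1 in edgeR, 3 in DESeq2, 6 in voom with quality weights, 0 without the libraries with reads of both sexes, and 0 to 5 when 1 library was left out (0 without each sham control and without epileptic Ctrl-dCas9A replicates 4, 7 and 9, 5 without replicate 5 of that group, and 4 without epileptic Kcna1-dCas9A replicate 12). Over all genes these counts came with 1940 calls in edgeR, 3686 in DESeq2, 7301 in voom, 5526 without replicate 5, 4777 without replicate 12, 519 without sham control 15 and 0 in the other fits that gave 0 of the 9. Replicate 12 is not in this comparison, but the edgeR fit estimates the spread from all groups together. With and without that library Cacng2 differed by -0.53 and -0.53, and Cacng8 by 0.73 and 0.72. Of the 38 other AMPA receptor genes 3 were called, against 11 in DESeq2, 5 with no filter, 1 with sex as a covariate, 16 in voom, 0 without the libraries with reads of both sexes, and 0 to 13 with 1 library left out. Of all genes, 4.53% were called with no filter, 2.93% with sex as a covariate and 0 to 31.3% with 1 library left out. The count stayed at 3 with the unmapped share as a covariate, but without Nptx1 (adjusted p = 0.10 in edgeR). It also stayed at 3 with the sum of both strand counts, but without Adar. Between the guides, leaving out 1 library gave 0 to 2 of the 9 and 0 to 4 of the 38. The highest counts came without epileptic Ctrl-dCas9A replicate 5, in a fit that called 8.54% of all genes. Between epileptic Kcna1-dCas9A and the controls 4 of the 38 were called with the unmapped share as a covariate (Cacng7, Dlg2, Gsg1l and Nptx2), in a fit that called 1.51% of all genes. The cause of these differences was not tested.

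With 1 library left out, the log2 ratio of Gria2 to Gria1 differed by -0.999 to -0.62 (epileptic Ctrl-dCas9A against controls) and 0.54 to 0.92 (between the guides), that of Cacng8 to Cacng2 by 1.13 to 1.48 and -1.38 to -0.71, and that of Cnih2 to Cnih3 by -0.85 to -0.62 and, for epileptic Kcna1-dCas9A against controls, -0.82 to -0.61. Without scaling by length the Gria2 share was 64.4, 50.4 and 61.7% in the 3 groups. No paired analysis was possible because the groups share no replicate number. With 5 or 6 libraries a group and calls that end with 1 library, the adjusted p-values near 0.05 carry little margin, while depth was at least 105 reads for each of the 9 genes in every library.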
